A study of Homo sapiens with 17 samples.

Results

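Domains in which strong H3K27ac summits lie close together were examined in the human embryonic stem cell line H1, an established pluripotent line. A summit is the base of highest signal in a called peak, and strong summits are the 20000 with the highest scores in a library. The domains were built from the first of 2 control libraries whose peaks are named H3K27ac shLUC. Its strong summits on chromosomes 1 to 22 were kept where the second repeat had any summit within 250 bp, which left 16088 of 19768. Neighbours at most 12500 bp apart were chained, and chains of 5 or more summits were called domains. This gave 28 domains with 163 summits, 1.01% of the 16088. The other summits formed 1633 chains of 2 to 4 and 12294 isolated summits, so the domains were 28 of 13955 chains. The domains were thus chosen by the positions of the H3K27ac summits of both control libraries and by the scores of the first. The number of these summits there is therefore given as a description and without a test.

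The libraries were made by CUT&Tag, in which an antibody brings the Tn5 transposase to chromatin and nearby DNA is tagged. For H3K4me1 and for H3K27ac there were 2 libraries with shHNRNPU#1 and 2 with shHNRNPU#2, both shRNAs against HNRNPU, and 2 libraries with shLUC, an shRNA against luciferase that served as the control. All shRNAs were delivered by virus and the cells were selected with puromycin. HNRNPU was profiled in 2 libraries of untransfected cells, and POLIIS2P, a name the labels do not spell out, in 2 shLUC libraries and 1 shHNRNPU#1 library. No label says that repeats were separate cultures, so p-values measure only the spread between libraries, which may be technical.

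In the 4 shLUC histone libraries the antibody in the sample title and the antibody in the peak names are exchanged. The libraries that chose the domains are named H3K27ac in their peaks and titled H3K4me1. Antibodies of these 4 libraries are given by peak name below, and values by title are given beside the totals over all domains. H3K27ac lists held 40487 and 51655 summits with shHNRNPU#1, 75264 and 85142 with shHNRNPU#2, and 62449 and 90914 with shLUC. H3K4me1 lists held 147145 and 152096, 174625 and 214333, and 179137 and 181357 summits in the same order. By peak name, each shLUC list was nearer in length to the shHNRNPU lists of its mark than to those of the other mark. Values by title therefore set lists of unlike length against each other. Read depth is unknown. Of 9 pluripotent markers found in the gene table, L1TD1, LIN28B, PODXL, NANOG, DNMT3B and SALL4 carried a strong H3K27ac summit in all 6 H3K27ac libraries, and DPPA4 in none. POU5F1 lacked one in the second shLUC library and in both shHNRNPU#2 libraries, and SOX2 in the second shHNRNPU#2 library. None of 4 neural, 5 mesendoderm and 6 fibroblast markers carried one in any of these libraries, and 3 of 4 trophoblast markers carried none. On longer lists of such genes, a strong summit in all 6 libraries occurred at 1 of 19 neural genes (NES), 2 of 14 trophoblast and amnion genes (KRT8 and KRT18) and 1 of 18 fibroblast genes (COL5A1), against 15 of 27 pluripotency genes and 27.8% of all autosomal protein-coding genes. The amount of HNRNPU was not measured in transfected cells by these libraries. The HNRNPU gene itself held 1 or 2 strong H3K27ac summits in each of the 6 H3K27ac libraries, which is no measure of the knockdown.

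H3K27ac, acetylation of lysine 27 on histone H3, marks active enhancers and promoters, and H3K4me1 marks enhancers more broadly. Long stretches in which acetylated elements crowd together are known near genes that a cell type transcribes strongly. HNRNPU, also called SAF-A, is an abundant nuclear protein that binds RNA and chromatin and is a component of the nuclear matrix.

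A few start sites inside the domains show what these stretches hold at the base level. The windows below run from 250 bases before to 50 bases after a RefSeq start (GRCh38.p14), 5′ to 3′ on the gene's strand. Each was chosen because a domain summit lay within 40 bp of the start and the other libraries placed their summits differently around it. Capitals mark matches on either strand to the CCAAT box, the GC box GGGCGG or the E-box CACGTG. The PGAP3 window is chr17:39688008-39688307 on the minus strand, RPL13A is chr19:49487358-49487657 on the plus strand, FCGRT is chr19:49512411-49512710 on the plus strand, and GNA12 is chr7:2815181-2815480 on the minus strand.
PGAP3: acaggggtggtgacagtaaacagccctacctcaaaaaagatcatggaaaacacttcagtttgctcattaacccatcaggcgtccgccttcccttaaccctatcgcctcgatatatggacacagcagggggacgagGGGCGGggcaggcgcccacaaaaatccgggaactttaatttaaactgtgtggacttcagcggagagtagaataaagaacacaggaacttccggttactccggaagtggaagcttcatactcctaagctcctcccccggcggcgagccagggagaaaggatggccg
RPL13A: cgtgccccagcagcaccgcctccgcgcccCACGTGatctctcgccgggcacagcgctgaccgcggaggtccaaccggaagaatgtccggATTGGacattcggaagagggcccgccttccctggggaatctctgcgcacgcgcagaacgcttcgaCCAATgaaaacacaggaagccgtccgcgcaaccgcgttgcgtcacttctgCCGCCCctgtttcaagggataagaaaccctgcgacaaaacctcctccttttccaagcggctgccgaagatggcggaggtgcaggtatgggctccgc
FCGRT: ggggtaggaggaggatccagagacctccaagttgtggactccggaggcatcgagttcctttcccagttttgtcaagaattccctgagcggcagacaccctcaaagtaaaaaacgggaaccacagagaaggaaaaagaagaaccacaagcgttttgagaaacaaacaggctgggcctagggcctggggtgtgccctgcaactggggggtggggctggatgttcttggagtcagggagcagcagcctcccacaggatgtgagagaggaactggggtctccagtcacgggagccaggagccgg
GNA12: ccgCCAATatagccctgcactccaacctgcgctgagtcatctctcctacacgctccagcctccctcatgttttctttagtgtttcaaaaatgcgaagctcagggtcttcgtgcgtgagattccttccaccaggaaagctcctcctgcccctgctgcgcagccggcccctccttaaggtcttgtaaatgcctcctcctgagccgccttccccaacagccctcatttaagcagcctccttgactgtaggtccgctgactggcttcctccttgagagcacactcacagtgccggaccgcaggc

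PGAP3 remodels the lipid anchor of cell surface proteins, and its start faces that of ERBB2, a receptor tyrosine kinase. The strong HNRNPU summits of both repeats lay 3 bp from the PGAP3 start, and the nearest POLIIS2P summits 3 and 5 bp in shLUC and 5 bp in shHNRNPU#1 cells. Its H3K27ac summits lay 11 and 160 bp away in shLUC, 144 and 160 bp in shHNRNPU#1, and 160 and 3 bp in shHNRNPU#2 cells. This start therefore had a strong summit within 160 bp in every HNRNPU, POLIIS2P and H3K27ac library. RPL13A, a protein of the large ribosomal subunit, had an H3K27ac summit 23 and 38 bp from its start in shLUC cells, and 37 or 38 bp from it in all 4 shHNRNPU libraries. HNRNPU was placed differently between repeats there, with the nearest strong summit 8669 bp away in the first and 251 bp in the second.

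FCGRT encodes the neonatal Fc receptor. Its start had a strong H3K27ac summit at 3 and 64 bp in the shLUC libraries, which chose the domain, while the nearest strong summits in the shHNRNPU libraries lay at 5896, 5882, 5841 and 5887 bp. GNA12, the alpha subunit of a heterotrimeric G protein, has this start inside its gene body. There the H3K27ac summits lay 37 and 81 bp away in shLUC, 301 and 80 bp in shHNRNPU#1, and 368 and 10 bp in shHNRNPU#2 cells, with HNRNPU at 143 and 14 bp. The start of FCGRT was thus the one of these 4 without a nearby strong summit in any shHNRNPU library. FCGRT was singled out after its values were seen.

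In all, 24 RefSeq windows touched a domain, and their letters were compared with those of 33725 autosomal windows of the same length. The GC box occurred in 33.3% of the domain windows and 45.0% of all windows. CCAAT occurred in 20.8% and 34.4%, TATAAA in 8.33% and 11.6%, and the E-box in 8.33% and 7.18%. The octamer ATTTGCAT, which POU factors bind, and the cAMP response element TGACGTCA occurred in 0 of the 24 windows, and in 1.75% and 1.87% of all windows. No motif searched is contained in another. The median number of CG pairs was 11 in the domain windows, 15 in the 15 of them with a domain summit within 1000 bp, and 14 in all windows.

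The domains spanned 18035 to 75367 bp, with a median of 31277 bp, and covered 975.5 kb in all. Of the 28, 18 held exactly 5 summits and 10 held more, and neighbouring summits were 703 to 12457 bp apart. They lay on 12 chromosomes. The shortest were the unnamed chromosome 16 interval at chr16:29709141-29727175 (18035 bp), the first MAD1L1 domain (24308 bp) and the PYGB/ABHD12 domain (25965 bp). The longest chains of 4, just outside the rule, covered 34411 bp at HSPG2, 31198 bp at DLG5 and 29782 bp at DOT1L.

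Protein-coding genes overlapped 25 of the 28 domains. These were 35 of 19126 autosomal protein-coding genes, or 0.183%. Of the 25, 17 overlapped 1 such gene and 8 overlapped several, and 10 domains lay wholly inside 1 gene body (ZMIZ1, GPT2, KDM4B, SLX9, COL18A1, GRAMD4, GNA12, EHMT1 and MAD1L1, which held 2 domains). A domain summit lay within 1000 bp of a RefSeq start in 12 of the 28 domains.

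EHMT1, a methyltransferase for lysine 9 of histone H3, held the domain with the most summits: 11 summits over 69718 bp at chr9:137682685-137752402. They began 63.7 kb and ended 133 kb downstream of the gene start, covering 32.1% of the gene and leaving its start outside. KDM4B, a demethylase for the same lysine, held 10 summits over 75367 bp at chr19:5075062-5150428, from 106 to 181 kb after its start. Both domains lay away from the gene start, and that of KDM4B reached into the last part of a gene of 184 kb. None of 25 writers and readers of enhancer marks and none of 22 nuclear architecture genes, lists fixed with earlier results known, overlapped a domain. Only 0.183% of all autosomal protein-coding genes overlapped one, so this says nothing particular about either list. SKI, a corepressor that restrains TGF-beta signalling, was overlapped by 2 domains on chromosome 1, of 5 summits (chr1:2215326-2248232) and 7 summits (chr1:2268066-2311588). ZMIZ1, a transcriptional coregulator, held 5 summits at chr10:79137737-79165500.

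Compact genes shared a pair of domains. The kinase gene PLK3, the bestrophin channel gene BEST4 and DYNLT4 lay in the BEST4/PLK3 domain of 5 summits on chromosome 1. RPL13A lay in the FLT3LG/RPL13A domain of 7 summits on chromosome 19, together with the cytokine gene FLT3LG, FCGRT and MIR150.

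None of 27 pluripotency genes, 16 primed pluripotency genes and 21 genes of the NODAL and TGF-beta pathway overlapped a domain. The pathway list does not hold SKI, which was overlapped by domains. With 0.183% of all genes in a domain, a count of 0 says nothing particular about these lists. A shared strong summit lay in or within 1000 bp of 20 of the 27 pluripotency genes (74.1%), 8 of the 16 primed genes (50%) and 8 of the 21 pathway genes (38.1%), against 41.3% of all autosomal protein-coding genes. Chains of 2 or more touched 8, 4 and 2 genes of these lists (29.6%, 25% and 9.52%), against 8.86% of all. Among other lists the share was 34.3% of cytosolic ribosomal protein genes, 27.3% of nuclear architecture genes and 0% of mesendoderm regulators. The share at pluripotency genes was thus not particular to them, and gene length was not matched. The longest chains had 3 summits for the pluripotency list (SOX2, POU5F1, USP44, CDH1 and DNMT3B) and 4 for the primed list (SALL2). LEFTY1, an inhibitor of NODAL, lay under the span of a chain of 3 without a strong shLUC summit of its own.

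The other host genes had varied roles. BCAR1, an adaptor of integrin signalling, held 7 summits over 29001 bp at chr16:75227929-75256929, and LRRC8A, a subunit of the volume-regulated anion channel, shared 6 summits with PHYHD1 at chr9:128888136-128922241. AP2A2, a subunit of the clathrin adaptor AP-2, shared 6 summits with the mucin gene MUC6, and LSS, the lanosterol synthase of sterol synthesis, shared 6 with SPATC1L. Enzymes of metabolism were GPT2, a mitochondrial alanine transaminase, and PYGB, a glycogen phosphorylase next to the lipase gene ABHD12. MGRN1, a ubiquitin ligase, UBAC1, a subunit of another, BICD2, a dynein adaptor, COL18A1, a basement membrane collagen, and MAD1L1, a spindle checkpoint protein, held 5 summits in each domain. The 3 domains without a protein-coding gene overlapped the pseudogene CROCCP2 (7 summits), the noncoding LOC124904507 (6 summits) and no gene at all (the chromosome 16 interval, 5 summits). The start of NBPF1 lay just outside the CROCCP2 domain, 117 bp from its first summit. The handling of reads that match several places is not given in the sources used here, so summits at CROCCP2, a copy of CROCC, are uncertain in position.

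The domains lay towards chromosome ends and in gene-rich stretches. The median distance of their summits to the outermost protein-coding gene of the chromosome was 4.62 Mb, against 21.0 Mb for summits in chains of 2 to 4 and 30.7 Mb for isolated summits. Within 5 Mb of that gene lay 52.1%, 22.5% and 11.5% of these summits, and 15 of the 28 domains. The nearest to an end were EHMT1 (0.372 Mb), SPATC1L/LSS (0.449 Mb), ADPRHL1/DCUN1D2 (0.858 Mb) and AP2A2/MUC6 (0.952 Mb). The median number of protein-coding genes within 500000 bp on either side was 15 for domain summits, 12 for chains of 2 to 4 and 8 for isolated summits. Chaining favours dense stretches by its own rule, so this density is a description of what was chosen.

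**Figure D1:**
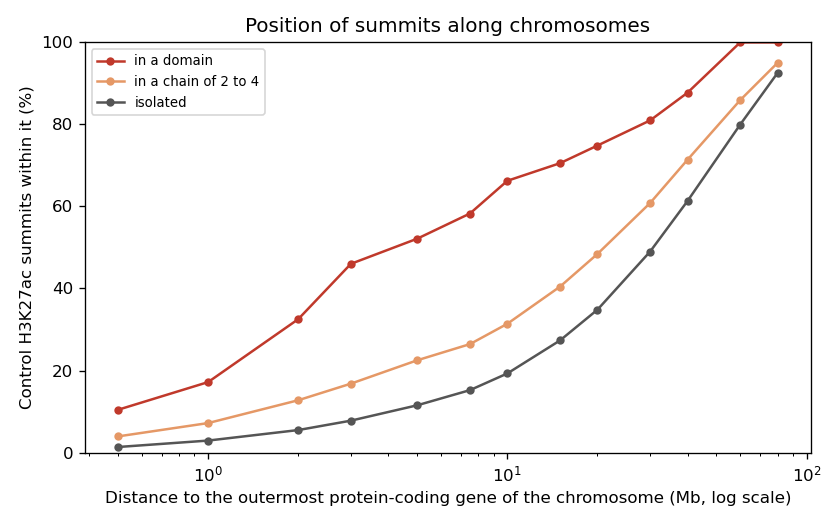
Share of control H3K27ac summits (%) that lie within a given distance of the outermost protein-coding gene of their chromosome (Mb, log scale), for 163 summits in domains, 3631 in chains of 2 to 4 and 12294 isolated summits. The curve of domain summits lies above the others throughout, with 52.1% within 5 Mb against 22.5% and 11.5%.

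Domain summits were mostly inside genes and seldom at their ends. Only 10.4% were at most 1000 bp from the start or end of any protein-coding gene (17 of 163), against 20.5% in chains of 2 to 4 and 25.2% of isolated summits. In a gene body away from its ends lay 73.0%, 61.6% and 45.1%. The median score rank within the library was 9228 for domain summits and 8999.5 for isolated ones, where 1 is the strongest, so domain summits were no stronger individually. Because ends of genes carry other marks more often, summits at gene ends and the others, called distal, are also compared apart below.

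HNRNPU was less frequent at the summits of domains than at isolated ones, although the domains as stretches held it above the autosomal density. Of the 163 domain summits, 23.3% and 26.99% had a strong HNRNPU summit within 500 bp in the 2 repeats, with 95% Wilson intervals of 17.5% to 30.4% and 20.8% to 34.3% that cover counting error only. Of the isolated summits, 42.5% and 42.7% had one. The difference was -17.4 ± 2.42 percentage points (SD, n = 2 libraries). It was smaller among distal summits, where the shares were 20.5% and 21.2% of 146 against 29.7% and 30.1% of 9193, a difference of -9.02 ± 0.18 points. Chains of 2 to 4 lay between, with 27.7% and 27.2% of distal summits. At gene ends the repeats differed widely in domains (47.1% and 76.5% of 17 summits, against 80.3% and 80.1% of isolated ones), so the difference there is not resolved. With 2 libraries no test of these differences was made.

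Per length, the domains held 38 and 47 strong HNRNPU summits, 5.65 and 7.01 times the autosomal density. The H3K4me1 libraries had 5.87 to 7.49 times theirs. The rule chose stretches of crowded H3K27ac summits, so such ratios to whole autosomes, here and below, are a description. HNRNPU summits were spread unevenly over the domains. In both repeats at least 1 strong summit occurred in 19 domains, in neither repeat in 7, and in 2 of these 7 no deposited HNRNPU summit of any strength occurred. The highest densities, as means of the repeats, were 1.10 strong summits per 10 kb at BEST4/PLK3 (3 and 4 summits), 1.04 at LOC124904507 (2 and 4), 0.970 at CROCCP2 (3 and 3), 0.918 at LOC124901803 (3 and 2) and 0.894 at GNA12 (3 and 2). Across the 28 domains the counts of the repeats correlated with r = 0.851 (rho = 0.881), a description over points that share their libraries.

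The domains without strong HNRNPU summits in either repeat were ADPRHL1/DCUN1D2, PYGB/ABHD12, COL18A1, GRAMD4, UBAC1 and both MAD1L1 domains. EHMT1 held 4 and 4 HNRNPU summits, and KDM4B 2 and 2. HNRNPU density followed that of H3K4me1 in shLUC cells (r = 0.804, rho = 0.804, n = 28 domains) more than that of POLIIS2P (r = 0.538, rho = 0.543), which is a description and not a tested difference. Domain length enters all of these densities.

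**Figure D2:**
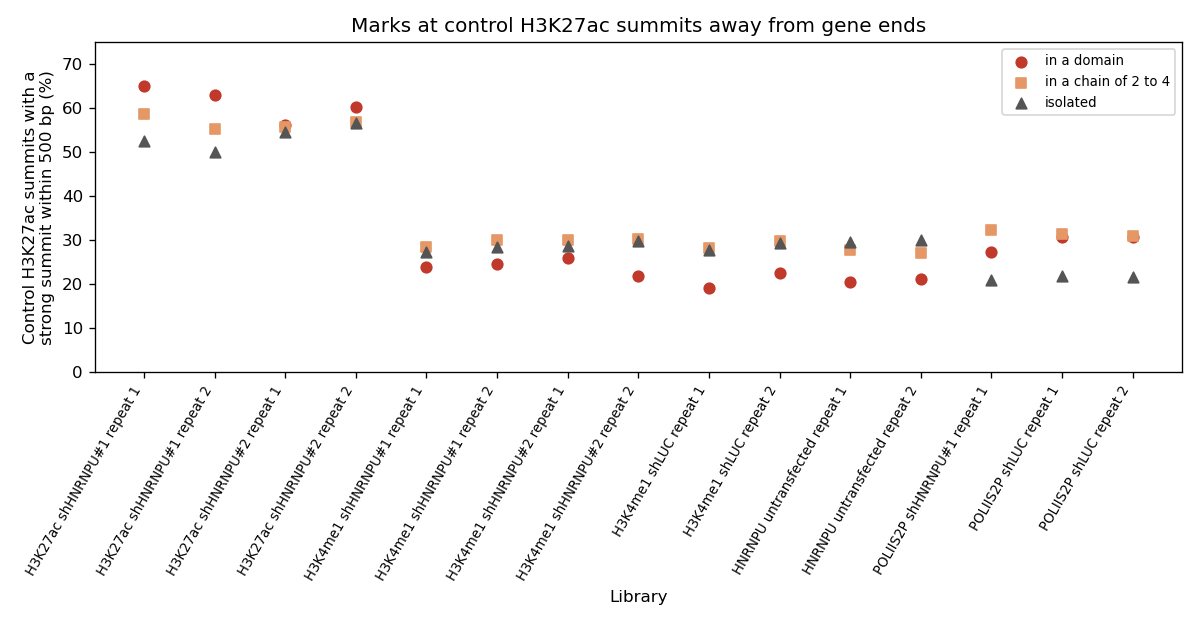
Share of distal control H3K27ac summits (%) with a strong summit of each library within 500 bp, for 146 summits in domains (circles), 2887 in chains of 2 to 4 (squares) and 9193 isolated summits (triangles). In the HNRNPU libraries domain summits are lowest, and in the 3 POLIIS2P libraries isolated summits are lowest.

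POLIIS2P differed little between domain and isolated summits when all were counted, with 35.6% and 34.4% against 33.8% and 33.0% in the 2 shLUC libraries (1.60 ± 0.29 points, SD, n = 2). Among distal summits it was more frequent in domains, with 30.8% in both libraries against 21.96% and 21.5%, a difference of 9.07 ± 0.30 points. Distal summits of chains of 2 to 4 had 31.4% and 30.9%, so this was shared with shorter chains. In the shHNRNPU#1 library 27.4% of distal domain summits (Wilson interval 20.8% to 35.1%) and 20.9% of isolated ones had a POLIIS2P summit. At gene ends the 2 shLUC libraries differed in sign, with differences of 7.69 and -2.11 points.

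The domains held 78 and 75 strong POLIIS2P summits in shLUC cells and 71 in shHNRNPU#1 cells, at 11.6, 11.1 and 10.5 times the autosomal density. Both shLUC libraries had at least 1 in 24 domains, and neither had any in 3, which were GRAMD4 and the 2 MAD1L1 domains. Those 3 were also among the domains without strong HNRNPU summits. The highest shLUC densities were 1.93 per 10 kb at PYGB/ABHD12 (4 and 6 summits), 1.76 at PGAP3/ERBB2 (5 and 5), 1.66 at the chromosome 16 interval (3 and 3), 1.55 at BCAR1 (5 and 4) and 1.32 at LRRC8A/PHYHD1 (4 and 5). PYGB/ABHD12 thus had the highest POLIIS2P density and no strong HNRNPU summit. In shHNRNPU#1 cells these 5 domains held 4, 5, 3, 4 and 4 POLIIS2P summits. The difference of -5.5 summits over all domains rests on 1 shHNRNPU library and has no replicate check, and it was 7 when all deposited summits were counted (239 against 231 and 233).

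When all were counted, H3K4me1 occurred at overlapping shares of domain and isolated summits. In the 6 libraries named H3K4me1, 20.2% to 25.8% of domain summits and 23.8% to 26.2% of isolated ones had a strong H3K4me1 summit within 500 bp. Among distal summits, where the comparison is free of gene ends, the shares were 19.2% to 26.0% in domains and 27.3% to 29.8% in isolated summits. These ranges did not overlap, but all 6 libraries were read at the same 146 domain summits. Wilson intervals of the domain share cover counting error only. The interval lay below the isolated share in the first shLUC library (13.6% to 26.3% against 27.8%). It also did so in the second shHNRNPU#2 library (16.0% to 29.3% against 29.8%). In the other libraries it included the isolated share, so the difference among distal summits is not resolved. At gene ends the observed order was opposite, with 23.5% to 29.4% of 17 domain summits and 11.4% to 15.6% of isolated ones. The domain shares were 4 summits (Wilson interval 9.56% to 47.3%) in the first repeat of each shHNRNPU, and 5 (13.3% to 53.1%) otherwise. These intervals included the isolated share in some libraries and not in others, so the difference there is not resolved. At least 1 strong H3K4me1 summit occurred in all 6 libraries in 16 domains, and in none of them in 4. Those 4 domains were GPT2, MGRN1, COL18A1 and UBAC1. ZMIZ1 held 3 and 2 H3K4me1 summits in shLUC, 3 and 5 in shHNRNPU#1, and 4 and 4 in shHNRNPU#2 cells.

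The effect of shHNRNPU on H3K4me1 in the domains was tested, since the rule did not use H3K4me1. The domains held 40 and 45 strong H3K4me1 summits in shLUC cells, 48 and 48 with shHNRNPU#1, and 51 and 43 with shHNRNPU#2. The groups overlapped, because the lower shHNRNPU#2 library lay between the shLUC libraries. The means were 47.5 ± 3.32 (SD, n = 4) and 42.5 ± 3.54 (SD, n = 2), a difference of 5 summits (two-sided exact permutation test over 15 assignments, p = 0.267, where the smallest possible p is 0.0667). All 4 shHNRNPU libraries were above both shLUC libraries in 1 of 28 domains, SPATC1L/LSS, while 0.843% of the 1661 chains of 2 or more showed this. The opposite occurred in 0 domains and in 1.02% of chains. As titled, the shLUC libraries held 168 and 133 summits and the difference was -103.

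After each shHNRNPU the domains kept most of their control H3K27ac summits. Within 500 bp of a strong H3K27ac summit lay 64.4% of the 163 domain summits in both shHNRNPU#1 libraries, and 57.7% and 61.3% in the shHNRNPU#2 libraries. In the second shLUC repeat, whose summits of any strength helped to choose the domains, the share was 74.2%. Against all deposited summits the shares were 83.4% and 79.8% with shHNRNPU#1 and 87.1% and 95.1% with shHNRNPU#2, in the same order as the lengths of the 4 lists. Distal domain summits were kept in 65.1% and 63.0% of cases with shHNRNPU#1, against 52.6% and 50.1% of isolated ones. With shHNRNPU#2 they were kept in 56.2% and 60.3%, against 54.6% and 56.6%. In the second shLUC repeat the shares were 72.6% and 61.7%, so a gap between domain and isolated summits was also present without shHNRNPU.

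Summit numbers in the domains were lower than in the control libraries that chose them. The 28 domains held 168 and 133 strong H3K27ac summits in shLUC cells, 128 and 133 with shHNRNPU#1, and 101 and 112 with shHNRNPU#2. The second shLUC library and the second shHNRNPU#1 library held the same number, so the groups touched. The means were 118.5 ± 14.7 (SD, n = 4) and 150.5 ± 24.7 (SD, n = 2), a difference of -32 that the choice of domains favours. Without the first shLUC library, which was ranked to find the domains, it was -14.5, and without the second it was -49.5. As titled, the shLUC libraries held 40 and 45 summits and the difference was 76. At least 1 strong summit remained in all 4 shHNRNPU libraries in 27 domains, the exception being the first SKI domain.

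**Figure D3:**
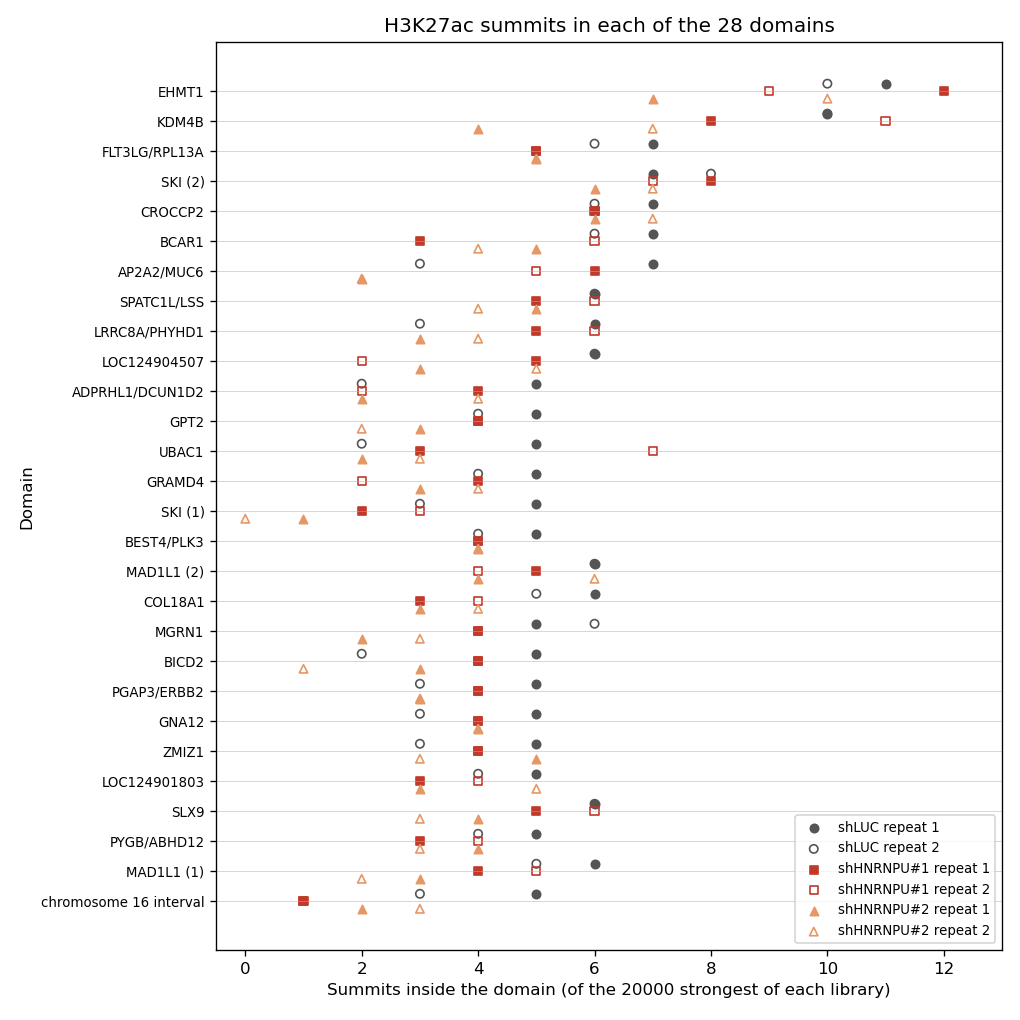
Number of strong H3K27ac summits (among the 20000 strongest of each library) inside each of the 28 domains, ordered by number of domain summits and then by length, for 2 shLUC (circles), 2 shHNRNPU#1 (squares) and 2 shHNRNPU#2 libraries (triangles). Markers of equal counts coincide, and the first SKI domain is the one with a count of 0, in the second shHNRNPU#2 library.

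Per domain, the mean over both shRNAs was below the shLUC mean in 24, equal in 3 and above in 1, with a median difference of -1.12 summits. Both shHNRNPU#1 libraries were below both shLUC libraries in 6 of 28 domains (19.6% of 1661 chains of 2 or more), and both shHNRNPU#2 libraries in 12 of 28 (19.1% of chains). The reverse occurred in 0 domains for either shRNA (0.12% and 0% of chains). Nothing is read from these counts, since the shLUC libraries chose the domains. LOC124904507, MGRN1, FLT3LG/RPL13A and COL18A1 were below with both shRNAs.

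The first SKI domain held 5 and 3 strong H3K27ac summits in shLUC cells, 2 and 3 with shHNRNPU#1, and 1 and 0 with shHNRNPU#2. The second SKI domain held 7 and 8, then 8 and 7, then 6 and 7. The same gene thus carried a domain with almost no strong summits under shHNRNPU#2 and one with nearly the control number. With all deposited summits the first SKI domain held 7 and 7, then 3 and 4, then 5 and 7. There shHNRNPU#2 no longer had the fewest, so this contrast holds for strong summits only. KDM4B held 10 and 10, then 8 and 11, then 4 and 7, and EHMT1 held 11 and 10, then 12 and 9, then 7 and 10. In KDM4B the shHNRNPU#2 libraries were below all others by strong summits, and in EHMT1 the groups overlapped. With all deposited summits KDM4B held 14 and 29, then 13 and 16, then 16 and 23, so its order was not kept. The chromosome 16 interval held 5 and 3 in shLUC cells, 1 and 1 with shHNRNPU#1, and 2 and 3 with shHNRNPU#2. It was the domain in which shHNRNPU#1 left fewest summits.

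The FLT3LG/RPL13A domain held 7 and 6 in shLUC cells and 5 in each shHNRNPU library. BEST4/PLK3 held 5 and 4, then 4 in each of the 4 shHNRNPU libraries. In both of these domains the number was therefore the same under both shRNAs. UBAC1 was the one domain with a higher mean, at 5 and 2 in shLUC cells, 3 and 7 with shHNRNPU#1, and 2 and 3 with shHNRNPU#2. Its higher mean rests on the second shHNRNPU#1 library. GNA12 (5 and 3, then 4 in each), ZMIZ1 (5 and 3, then 4 and 4, then 5 and 3) and LRRC8A/PHYHD1 (6 and 3, then 5 and 6, then 3 and 4) had equal means.

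**Figure D4:**
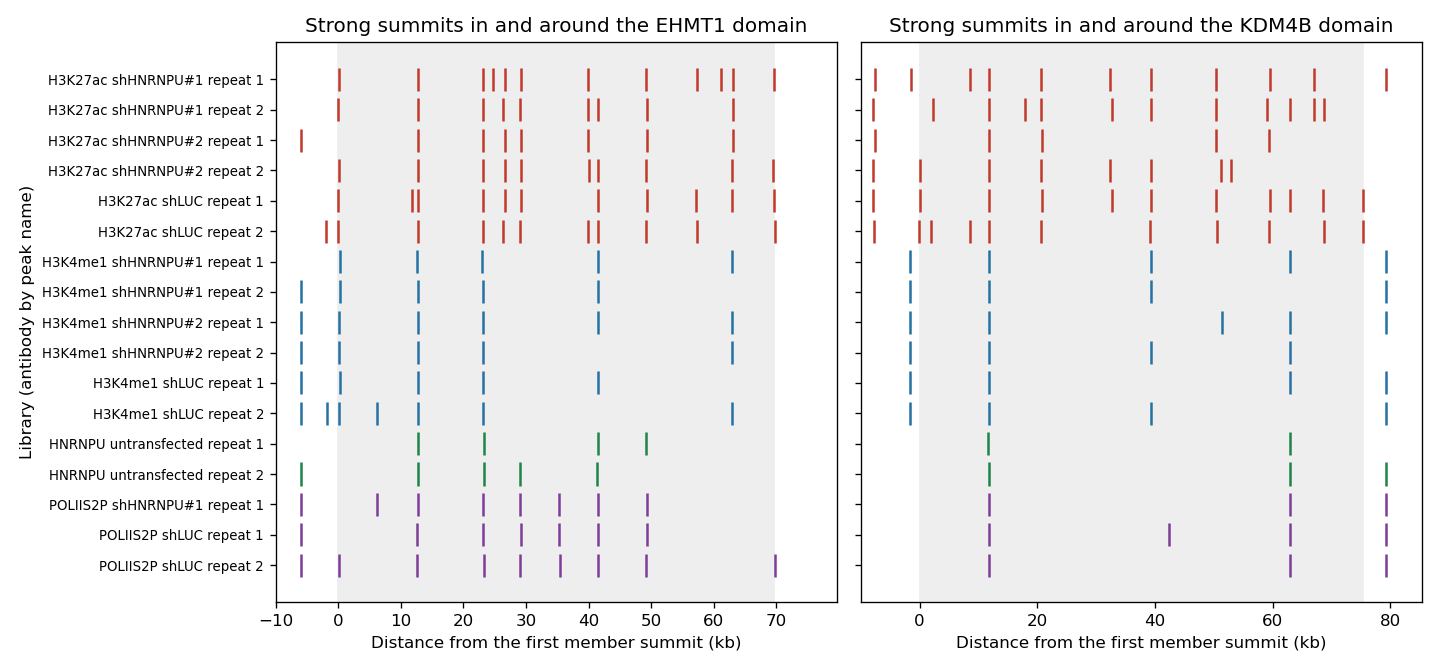
Strong summits of the 17 libraries in and around the EHMT1 and KDM4B domains (shaded), as ticks at the distance from the first domain summit in kb, with the antibody given by peak name. EHMT1 has 7 and 10 H3K27ac summits in the shHNRNPU#2 libraries against 11 and 10 in shLUC, and KDM4B has 4 and 7 against 10 and 10.

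The shRNAs could be compared with each other without the libraries that chose the domains. Over all domains shHNRNPU#1 gave 128 and 133 strong H3K27ac summits and shHNRNPU#2 gave 101 and 112, means of 130.5 and 106.5. The difference of 24 separated the groups (two-sided exact permutation test over 6 assignments, p = 0.333, the smallest possible p). Both shHNRNPU#1 libraries were above both shHNRNPU#2 libraries in 10 of 28 domains (SKI (1), AP2A2/MUC6, MGRN1, GPT2, PGAP3/ERBB2, KDM4B, SLX9, MAD1L1 (1), BICD2 and LRRC8A/PHYHD1), or 35.7%, where 6.38% of the 1661 chains showed this. The opposite occurred in 1 domain, the chromosome 16 interval, and in 6.62% of chains. Most of these chains held fewer summits than a domain, so fewer of them could separate. With all deposited summits the order turned, at 213 and 190 for shHNRNPU#1 and 209 and 240 for shHNRNPU#2, a difference of -23 (exact permutation p = 0.667), and the shHNRNPU#2 lists were the longer ones.

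AP2A2/MUC6 held 6 and 5 strong summits with shHNRNPU#1, 2 and 2 with shHNRNPU#2, and 7 and 3 in shLUC cells. BICD2 held 4 and 4, 3 and 1, and 5 and 2. In both domains the second shLUC library lay below the shHNRNPU#1 libraries, so the order of control and shHNRNPU#1 was not settled. The first MAD1L1 domain held 4 and 5 with shHNRNPU#1, 3 and 2 with shHNRNPU#2, and 6 and 5 in shLUC cells. With all deposited summits, in the same order, AP2A2/MUC6 held 13 and 8, 9 and 14, and 10 and 15. BICD2 then held 7 and 4, 8 and 7, and 7 and 8, and the first MAD1L1 domain 7 and 5, 8 and 6, and 7 and 8. None of these domains then had both shHNRNPU#1 libraries above both shHNRNPU#2 libraries.

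Each library was also chained on its own, with no partner required, so that no library was favoured. The shLUC libraries formed 64 and 68 domains, shHNRNPU#1 formed 84 and 90, and shHNRNPU#2 formed 39 and 45. The shRNAs thus lay on opposite sides of the control, and the means over 4 and 2 libraries were 64.5 ± 26.2 and 66 ± 2.83 (difference -1.5, two-sided exact permutation test over 15 assignments, p = 0.867). Against shLUC, shHNRNPU#1 differed by 21 and shHNRNPU#2 by -24, each with an exact permutation p = 0.333, the smallest that 2 against 2 libraries allow. Between the shRNAs the difference was 45 with the same p, and 0.5 (exact permutation p = 1) with the 10000 strongest summits. It was 92.5 with the 30000 strongest summits and 105 when joined at 20000 bp. When a summit also had to have a partner in the other repeat, the numbers were 28 and 25, 17 and 24, and 19 and 21, so the excess with shHNRNPU#1 was not present among shared summits. The partner could be a summit of any strength, and the shHNRNPU#1 lists were the shortest H3K27ac lists. The part of list length in these numbers was not tested. As titled, the shLUC libraries formed 76 and 80 domains and the difference was -13.5.

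**Figure D5:**
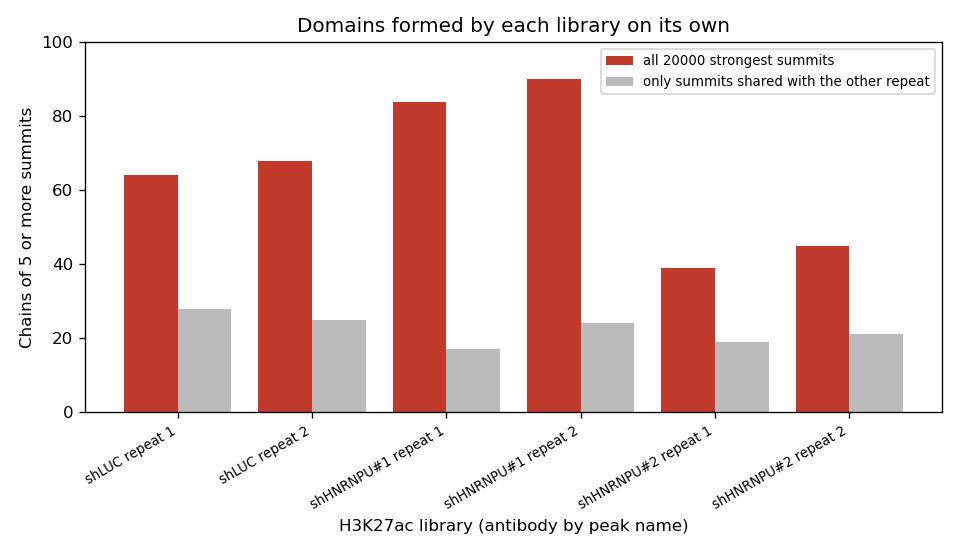
Number of chains of 5 or more summits that each H3K27ac library formed from its own 20000 strongest summits, with all summits (red bars) and with summits shared with the other repeat (grey bars). Red bars are at 64 and 68 for shLUC, 84 and 90 for shHNRNPU#1, and 39 and 45 for shHNRNPU#2, and grey bars lie between 17 and 28.

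Of the 28 control domains, 12 and 16 were overlapped by a domain of the shHNRNPU#1 libraries, 5 and 10 by one of the shHNRNPU#2 libraries, and 13 by one of the second shLUC repeat. These overlaps were 14.3% and 17.8% of the domains of the shHNRNPU#1 libraries, and 12.8% and 22.2% of those of shHNRNPU#2. CROCCP2, BCAR1, FLT3LG/RPL13A and EHMT1 were chained again in all 4 shHNRNPU libraries. SKI (1), BEST4/PLK3, MGRN1, the chromosome 16 interval, GPT2, PYGB/ABHD12, GRAMD4 and BICD2 were chained again in none. The second shLUC repeat, also a control, did not chain the remaining 15 of the 28 on its own.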

How the data were processed

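The authors deposited 1 list of summits per CUT&Tag library, 17 in all, with a score per summit that was read as the −log10 of a p-value or q-value from the authors' peak caller. The submitters' processing notes name cutadapt, Bowtie2, SAMtools, MACS2, deepTools and the build hg38 without their roles. Lists were taken as called per library. The scores start at levels of 0.01 (histone marks) and 0.05 (HNRNPU and POLIIS2P), and were used only to rank summits within a list. A deposited list of 48095 HNRNPU intervals of 400 bp was used as an alternative. Depth is unknown, so the 20000 strongest summits of each list were compared, which does not remove differences in library quality.

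Groups follow the sample titles, except that the antibody of the 4 shLUC histone libraries follows the peak names, as the rule for the domains does. Domains, shares within 500 bp and counts in domains, with 250 bp added on either side, were computed in Python 3.11.15 with numpy 2.4.6, pandas 2.3.3 and scipy 1.17.1, and the code was tested on simulated data. Genes and start sites came from RefSeq tables for GRCh38.p14, and positions count from 1. The gene table gives no strand or exons, so exon and intron classes were not assigned. Two-sided exact permutation tests compared libraries. The domains, gene lists and tests were chosen with earlier results of these data known. Domains were named by most summits, length, HNRNPU or POLIIS2P density, and largest change, which gave 20, and the others by their overlap or counts.

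Repeat numbers were not treated as pairs, because same-numbered libraries did not deviate together (correlations over 28 domains between -0.398 and 0.209). Alternatives varied the list length, joining distance, partner rule, ranked repeat, matching distance, antibody names and libraries left out. Results for some genes inside the domains are not reported here.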

Additional observations from a re-analysis of the deposited data

Results flagged for a closer look

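The number of H3K27ac domains that each library formed on its own moved in opposite directions with the 2 shRNAs. Relative to the shLUC mean it was higher by 21 in shHNRNPU#1 and differed by -24 in shHNRNPU#2 cells, and every library of each shRNA was on its own side of both shLUC libraries. The direct comparison of the shRNAs, 45 domains apart, had p = 0.333 in the two-sided exact permutation test, the smallest that 2 against 2 libraries allow. With the 10000 strongest summits the same difference was 0.5 domains (exact permutation p = 1), where each of these libraries formed only 5 to 10 domains. It was also 0.5 when a partner in the other repeat was required. With the 30000 strongest summits it was 92.5, and 105 when joined at 20000 bp (exact permutation p = 0.333 for each). The difference thus depends on these settings. The shHNRNPU#1 lists held 51655 and 40487 summits and the shHNRNPU#2 lists 75264 and 85142, and the part of list length in this difference was not tested. No library stood apart in the 4 sets of counts examined over the 4 shHNRNPU libraries of a mark, by a criterion that chance meets in about 5% of sets.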

How the results depend on the processing

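The number of domains depended strongly on the settings: it was 2 with the 10000 and 95 with the 30000 strongest summits, 0 when joined at 5000 bp and 98 at 20000 bp, 11 when the partner had to be strong and 64 with no partner. Ranking the second repeat gave 25, which overlapped 12 of the 28, and the libraries titled H3K27ac shLUC, an alternative chosen after seeing the data, gave 71, which overlapped 1. The HNRNPU difference was -12.5 points with the 10000 strongest summits and -9.02 among distal summits, and -19.2 to -15.7 without each library in turn. The POLIIS2P difference was 2.09 points at 250 bp, 14.7 with all deposited summits, 2.79 at gene ends and 9.07 among distal summits, and 1.40 to 1.81 without each library in turn. By title, the change with shHNRNPU was -103 H3K4me1 and 76 H3K27ac summits. The H3K27ac change was -9.25 with the 10000 strongest summits and ranged from -49.5 to -14.5 without single libraries, and that of H3K4me1 from 2.5 to 7.5. With all deposited summits the difference between the shRNAs was -23 and the POLIIS2P change 7. Without single libraries these ranged from 18.5 to 29.5 and from -7 to -4. The difference in domains formed by each library was 4.5 at 20000 bp, 11.25 with the 30000 strongest summits and 21 for shHNRNPU#1 alone, and ranged from -10 to 7 without single libraries. The cause of these changes was not tested.

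With the replicate number as a block, the differences were those of the unpaired tests by construction: 5 H3K4me1 summits (p = 0.333), 24 H3K27ac summits between the shRNAs (p = 0.5, also with the crossed pairing) and -1.5 domains (p = 0.778, exact permutation tests), so no call changed. No design here can pass 0.05, and unknown depth limits every count.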
